A study of Mus musculus with 12 samples.

Results

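The 10 genes described here are Ipcef1, Garnl3, Adgrl2, Atp2b4, Meis2, Vstm2l, Cobl, Gm11549, Brinp3 and Cit. They were selected on their counts, out of 55487 annotated genes: their RNA was much higher in the hippocampus of 14-day-old (P14) Auts2 knockout mice than in controls, without a matching rise in the newborn (P0) knockout forebrain. Their P14 and P0 genotype differences, which chose them, are therefore given as a description. Where the fit's threshold is mentioned for them, it describes the fit, is no independent test and supports nothing. They are called neuronal from what is known of the genes: bulk tissue RNA does not show which cells held the transcripts.

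In the nucleus AUTS2 takes part in transcriptional control in neurons, and its gene is linked to autism and intellectual disability. A long isoform and shorter isoforms that start further downstream are known, and the mice were made to lose the long one. The 10 genes do not form 1 pathway. Their products span signalling adaptors and GTPase regulators, an adhesion receptor, a calcium pump, a transcription factor and regulators of the actin cytoskeleton. Several are known from particular forebrain regions: Meis2, for example, is a marker of the developing striatum.

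RNA-seq was done on 12 male mice, 1 library each, in 4 groups of 3. At P14 the hippocampus of nes-cre_auts2-ex7koko mice was set against that of auts2-ex7-fl-het mice, and at P0 the forebrain of cmv-cre_auts2-ex7koko mice was set against that of BL6 wild-type littermates. The knockouts carry the exon 7 floxed allele (Auts2tm1.1Dare), recombined by B6.Cg-Tg(Nes-cre)1Kln/J, which acts in neural progenitors and their progeny, or by B6.C-Tg(CMV-cre)1Cgn/J, which acts throughout the body. The P14 controls are heterozygous for the floxed allele, and the labels do not say whether they carry Cre. The P14 and P0 pairs differ in tissue, in age, in the Cre driver and in the kind of control mouse. Their library numbers differ too, from 1280 to 1285 at P14 and from 1407 to 1416 at P0. The labels do not explain these numbers. The parts of all these in a difference between the pairs cannot be told apart.

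The libraries held 11247150 to 16796797 counted fragments at P0 and 16830720 to 23340621 at P14. Levels are given as CPM, counts scaled to a common library size, with TMM factors over all 12 libraries. The targeted gene cannot be checked at the level of the long isoform, since counts were summed over whole genes: Auts2 stood at 93.0, 77.6 and 75.2 CPM in the 3 P14 knockouts and at 97.5, 98.0 and 110.3 CPM in the controls. At P0 it stood at 165, 182 and 161 CPM in the knockouts and at 160, 136 and 155 CPM in the wild type. Neither difference passed the threshold of 0.05 on the Benjamini-Hochberg adjusted p of edgeR's quasi-likelihood test (0.111 at P14, 0.362 at P0). Markers of hippocampal dentate granule cells were present in all P14 libraries, with Prox1 at 97.7 to 202 CPM.

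Upstream sequence is shown for 3 of the genes, because Meis2 is itself in the set and binds the letters TGACAG, and because Ipcef1 had the largest rise. In RefSeq's windows of 250 bases before to 50 after each annotated start, 8 of the 10 genes had an entry, with 14 windows between them. Vstm2l and Gm11549 had none. TGACAG, searched on both strands, was found in 2 of the 14 windows and in 19.2% of all 32851 windows. The Atp2b4 and Cobl matches lie on the strand opposite to the gene, so they read as its reverse complement, which is in capitals. Each sequence below is the 250 bases before 1 annotated start in build GRCm38.p6, written 5′ to 3′ on the minus strand, where all 3 genes lie. These starts lie inside the gene, not at its 5′ end. That end is at position 133801041 for Atp2b4, 12464960 for Cobl and 7052478 for Ipcef1.
Atp2b4, chr1:133753748-133753997: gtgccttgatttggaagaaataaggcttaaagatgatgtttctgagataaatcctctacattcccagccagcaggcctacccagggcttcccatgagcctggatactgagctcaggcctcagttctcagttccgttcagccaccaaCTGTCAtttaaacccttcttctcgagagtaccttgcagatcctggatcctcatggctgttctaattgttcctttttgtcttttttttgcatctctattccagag
Cobl, chr11:12412141-12412390: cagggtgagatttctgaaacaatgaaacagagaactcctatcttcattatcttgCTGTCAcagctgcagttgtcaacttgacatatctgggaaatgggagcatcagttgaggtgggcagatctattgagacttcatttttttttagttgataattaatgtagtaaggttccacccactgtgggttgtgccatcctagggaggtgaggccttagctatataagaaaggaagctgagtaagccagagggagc
Ipcef1, chr10:6980282-6980531: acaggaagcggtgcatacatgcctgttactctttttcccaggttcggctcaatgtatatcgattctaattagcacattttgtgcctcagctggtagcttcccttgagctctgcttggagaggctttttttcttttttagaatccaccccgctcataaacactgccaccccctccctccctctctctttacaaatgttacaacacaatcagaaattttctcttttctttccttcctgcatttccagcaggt
The match in Atp2b4 begins at position -104 from the start, and that in Cobl at -196, in 1 of its 2 windows. These are matches of letters, not sites of binding. None of the member windows held the letters TGACGTCA (CRE; in 1.79% of all windows), TGANTCA (AP-1; 7.81%) or CACGTG (E-box; 7.15%), nor the NRF1 (0.971%) or MEF2 (0.164%) motif, all searched on both strands.

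All 10 genes were called higher in the P14 knockout, as the way they were picked requires. The call was made for 1.21% of the 17208 genes tested. Their median log2 fold change was 0.92, beside -0.007 over all genes tested. Every knockout library lay above every control library for each of the 10, a separation seen in that direction for 9.43% of genes. In whole tissue, a higher level can mean more cells that hold the RNA or more RNA per cell, and these cannot be told apart.

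**Figure D1:**
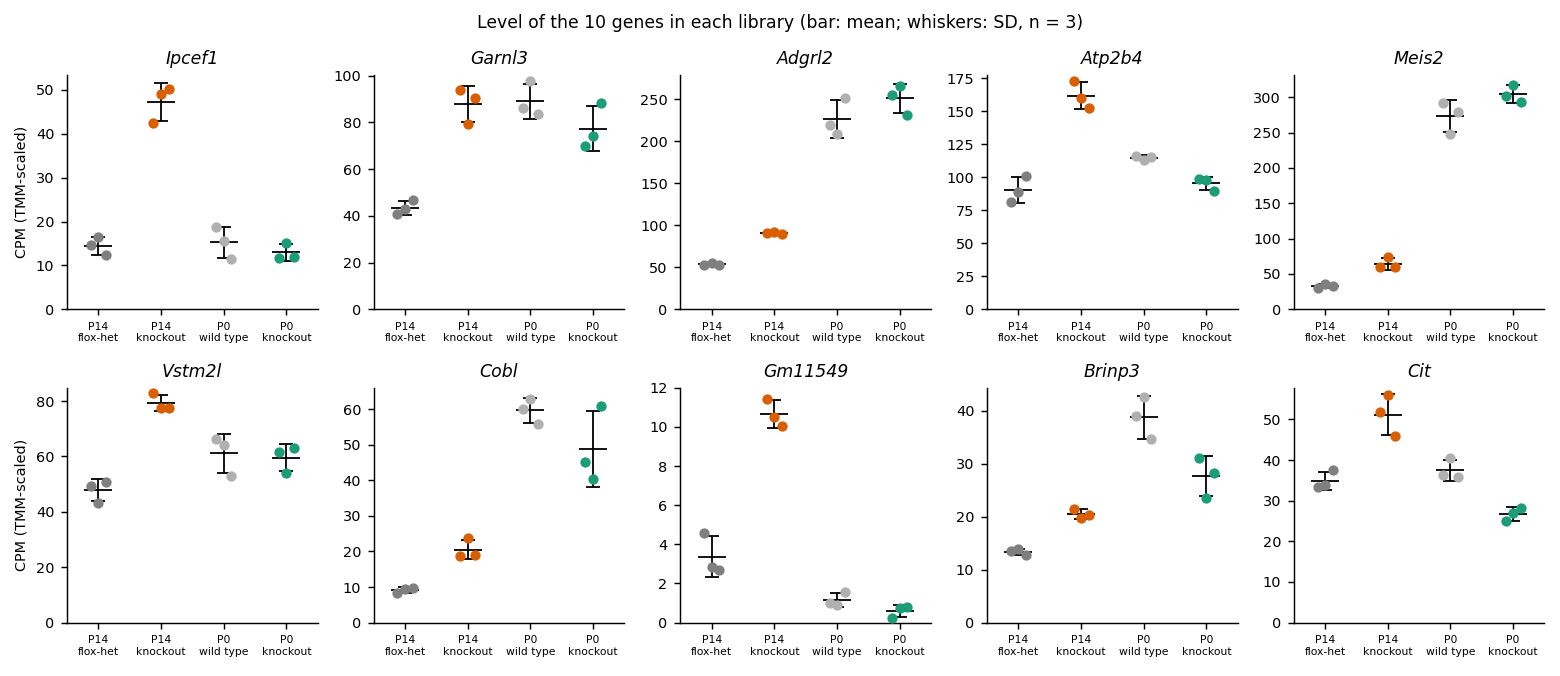
Level of each of the 10 genes in each of the 12 libraries (CPM, linear axis from 0, a separate scale per gene). Points are single mice, bars are means and whiskers are SD (n = 3); the P14 knockouts lie above the P14 controls in every panel, while the P0 groups overlap in 5 of the 10.

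Ipcef1 encodes an adaptor that binds cytohesins, the exchange factors that activate the small GTPase Arf6. Its gene (ENSMUSG00000064065) lies on chr10:6885796-7052478, minus strand, in GRCm38. It stood at 42.4, 49.0 and 50.3 CPM in the P14 knockouts and at 14.6, 16.5 and 12.3 CPM in the P14 controls. The fold of 3.30 (log2 1.72 ± 0.11, SE) was the highest of the set. The P0 knockouts, at 11.8, 15.2 and 11.98 CPM, overlapped the wild type, at 18.7, 15.6 and 11.5 CPM. Thus the P14 controls and both P0 groups lay in 1 range, and the P14 knockouts alone stood apart. Oprm1, the mu opioid receptor gene, overlaps Ipcef1 on the opposite strand. The counts took no account of strand, so reads from the overlap cannot be assigned, but Oprm1 itself held 13 to 61 counts per library.

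Garnl3 encodes a protein with a Rap/Ran GTPase-activating domain (ENSMUSG00000038860, chr2:32986224-33131654, minus strand). It stood at 94.1, 79.2 and 90.7 CPM in the P14 knockouts and at 40.6, 43.1 and 46.7 CPM in the controls, a fold of 2.04 (log2 1.03 ± 0.09). The P0 knockouts had 69.9, 74.1 and 88.2 CPM and the wild type 86.4, 97.7 and 83.4 CPM, and these groups overlapped. The P14 knockout mean of 88.0 ± 7.78 CPM (SD, n = 3) was thus close to the P0 wild-type mean of 89.2 ± 7.52 CPM, while the P14 control mean was 43.5 ± 3.07 CPM.

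At the cell surface, Adgrl2 encodes latrophilin-2, an adhesion G protein-coupled receptor that binds teneurins and FLRT proteins and helps to place synapses on hippocampal neurons (ENSMUSG00000028184, chr3:148815583-148990555, minus strand). Its level was 91.2, 92.1 and 89.4 CPM in the P14 knockouts and 52.5, 55.3 and 52.8 CPM in the controls. Both groups were tight, and the fold was 1.71 (log2 0.77 ± 0.07). In the P0 forebrain it was much more abundant, with 255, 266 and 232 CPM in the knockouts and 219, 208 and 252 CPM in the wild type, which overlapped.

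Atp2b4 encodes a plasma membrane pump that moves calcium out of the cell (ENSMUSG00000026463, chr1:133699457-133801041, minus strand). The P14 knockouts had 173, 160.0 and 152 CPM, and the controls 81.4, 88.4 and 101 CPM, a fold of 1.80 (log2 0.85 ± 0.09). At P0 the direction was the opposite: 98.8, 98.0 and 89.8 CPM in the knockouts against 116, 113 and 116 CPM in the wild type. All 3 P0 knockouts lay below all 3 wild-type mice, by a log2 difference of -0.27 ± 0.07 that was not called.

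Meis2 encodes a homeobox transcription factor of the TALE class that works with PBX partners (ENSMUSG00000027210, chr2:115863064-116065839, minus strand). Its P14 level was 59.1, 73.8 and 59.8 CPM in the knockouts and 29.9, 36.2 and 32.4 CPM in the controls, a fold of 1.97 (log2 0.98 ± 0.10). The second knockout library was the highest. In the P0 forebrain the level was several times higher, with 302, 318 and 294 CPM in the knockouts and 292, 249 and 280 CPM in the wild type. The P0 knockouts all lay above the wild type, by 0.15 ± 0.08 on the log2 scale, which was not called.

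Vstm2l encodes a small immunoglobulin-domain protein (ENSMUSG00000037843, chr2:157914653-157944719, plus strand). The P14 knockouts had 82.8, 77.6 and 77.5 CPM and the controls 49.4, 43.3 and 50.6 CPM, a fold of 1.67 (log2 0.74 ± 0.08). The P0 groups overlapped, at 61.6, 53.9 and 63.0 CPM against 66.2, 64.2 and 53.0 CPM. Its P0 log2 difference of -0.04 ± 0.10 was the one nearest to 0 in the set. Per kilobase of exon Vstm2l was the most abundant of the 10 in every group, at 58.2 CPM per kb in the P14 knockouts and 35.1 in the controls; its exons sum to 1363 bases, the fewest of the 10.

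Cobl encodes cordon-bleu, an actin nucleator that promotes the branching of dendrites (ENSMUSG00000020173, chr11:12236608-12464960, minus strand). It stood at 18.9, 23.7 and 19.1 CPM in the P14 knockouts and 8.38, 9.38 and 9.81 CPM in the controls, a fold of 2.25 (log2 1.17 ± 0.13). The P0 forebrain levels were higher and overlapped, with 45.2, 40.4 and 60.9 CPM in the knockouts and 60.2, 63.0 and 55.9 CPM in the wild type. The third P0 knockout, the one from the later library number series, lay within the wild-type range, and the other two lay below it.

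Cit encodes citron, an effector of small GTPases. Its long form is a kinase needed for the final cut of cell division, and a shorter form without the kinase domain sits at synapses; the gene-level count sums both (ENSMUSG00000029516, chr5:115845278-116008947, plus strand). Its P14 levels were 51.8, 55.9 and 45.9 CPM in the knockouts and 33.3, 33.96 and 37.5 CPM in the controls, a fold of 1.48 (log2 0.56 ± 0.09), the smallest of the 10. At P0 it went the other way, at 24.97, 26.9 and 28.3 CPM in the knockouts and 36.2, 40.4 and 35.8 CPM in the wild type, with no overlap. Cit lies on the same chromosome as Auts2.

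Brinp3 belongs to a family of neural proteins induced by BMP and retinoic acid (ENSMUSG00000035131, chr1:146494760-146902472, plus strand). The P14 knockouts had 21.4, 19.7 and 20.4 CPM and the controls 13.5, 13.9 and 12.7 CPM, a fold of 1.55 (log2 0.63 ± 0.11). At P0 the knockouts had 31.1, 23.5 and 28.3 CPM, all below the wild type at 39.1, 42.7 and 34.6 CPM. It was the one gene whose P14 call did not survive every setting: without the first P14 knockout library its log2 fold change was 0.59 and it was no longer called. Gm29514, on the opposite strand of Brinp3, held 6 to 29 counts per library and cannot be separated from it without strand.

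Gm11549 is a predicted gene listed as protein-coding, whose role is not known (ENSMUSG00000085007, chr3:36515057-36521813, minus strand). It stood at 11.4, 10.5 and 10.1 CPM in the P14 knockouts and 4.56, 2.85 and 2.69 CPM in the controls. The fold of 3.20 (log2 1.68 ± 0.19) was the second highest of the set. At P0 it was scarce, with 3 to 13 counts per knockout library (0.239, 0.746 and 0.787 CPM) and 11 to 28 per wild-type library (1.01, 0.891 and 1.55 CPM). Its P0 log2 difference of -0.97 ± 0.44 therefore had the widest error of the set.

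The P0 pair, which uses another Cre driver and another tissue, was part of how the genes were picked, so their P0 signs and calls are described only. At P0 8 of the 10 log2 differences were negative and 2, those of Adgrl2 and Meis2, were positive, with a median of -0.25 beside 0.00 over all genes. Cit alone was called, and it was lower (log2 -0.49 ± 0.10). The P0 call was made for 0.909% of the 16176 genes tested, 0.717% in the lower direction and 0.192% in the higher. Every knockout library lay below every wild-type library for 11.1% of those genes, and above for 10.7%. The count of members called ranged from 0 to 4 when single P0 libraries were left out: it was 0 without the first or the second library of either genotype, and 4 (Garnl3, Cobl, Brinp3 and Cit) without the third knockout. How many of all genes were called in those fits is not given. The first and second library of each genotype carry neighbouring library numbers, and the third of each comes from a later number series, which the labels do not explain.

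Within those 2 number series the P0 differences were not alike for all genes. Ipcef1 differed by -0.35 on the log2 CPM scale in the first series and 0.06 in the second, which holds 1 mouse per genotype. Garnl3 differed by -0.35 and 0.08, Cobl by -0.53 and 0.12, and Vstm2l by -0.18 and 0.25. Adgrl2 changed sign too, from 0.29 to -0.12. By contrast Atp2b4 (-0.22 and -0.36), Gm11549 (-0.93 and -0.88), Brinp3 (-0.59 and -0.29) and Cit (-0.56 and -0.34) were lower in the knockout in both series, and Meis2 was higher in both (0.20 and 0.07). With the first series alone, 6 of the 10 were called, 5 of them lower and Adgrl2 higher. Relatives of the genes, described below, were also called far more often in that fit than in the main one. The share of all genes called in it is not given, so this count is no result about the 10. With the series as a term in the fit, 3 were called (Atp2b4, Brinp3 and Cit).

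**Figure D2:**
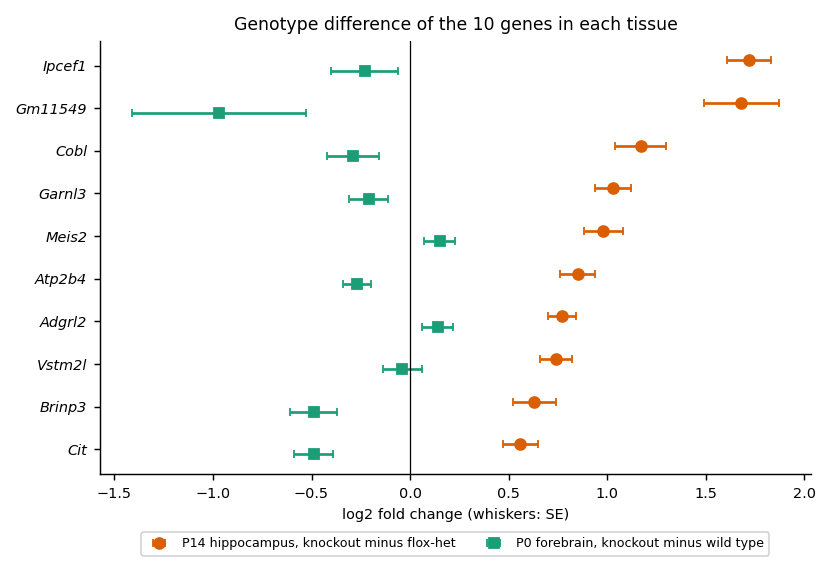
Log2 fold change (x axis) of each of the 10 genes, knockout minus control, in the P14 hippocampus (circles) and the P0 forebrain (squares), with SE whiskers. The P14 values run from 0.56 to 1.72, and 8 of the 10 P0 values lie below 0.

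The P14 genotype difference exceeded the P0 one for all 10 genes, with a median of 1.10 on the log2 scale. The range was 0.62 (Adgrl2) to 2.63 (Gm11549). That contrast, too, was part of how the genes were picked: in it 1.37% of the 18189 genes tested were called in the same direction. For Atp2b4, Gm11549, Brinp3 and Cit the difference joins a P14 rise to a P0 value below the wild type in every library. For Meis2 both values were positive and the P14 one was larger. Such full separation at P0 was seen for 11.1% of all genes tested in the lower direction and 10.7% in the higher.

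The control mice alone gave the levels of each gene in the 2 tissues. This comparison was not itself used to pick the genes, but it shares the P14 controls with the P14 contrast and the P0 wild type with the P0 contrast. Picking for a P14 rise without a P0 rise can favour low P14 control and high P0 wild-type values. The calls below are therefore a description, not independent of the picking. Age, tissue, control genotype and the range of library numbers change in this comparison together. Between P14 control hippocampus and P0 wild-type forebrain 64.7% of 17355 genes were called (32.2% lower at P14, 32.5% higher), so a call was common. Of the 10 genes 7 were called lower at P14, 1 higher and 2 not called, with a median of -0.70 beside -0.004 over all genes. Meis2 was lower by the widest margin (log2 -3.06), followed by Cobl (-2.70), Adgrl2 (-2.09), Brinp3 (-1.54) and Garnl3 (-1.04). Vstm2l (-0.36, edgeR adjusted p = 0.00467) and Atp2b4 (-0.35, edgeR adjusted p = 0.00196) were lower by less. Gm11549 alone was called higher (1.49, edgeR adjusted p = 0.000618), while Ipcef1 (-0.08) and Cit (-0.11) were not called.

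The P14 knockout levels were also set against the P0 wild-type means, and the ratios differed from gene to gene. Meis2 in the P14 knockout was at 0.235 times the P0 wild-type level, where the P14 control was at 0.120 times. For Cobl the 2 ratios were 0.344 and 0.154, for Adgrl2 0.402 and 0.237, and for Brinp3 0.528 and 0.344. Those 4 genes were higher than in P14 controls but remained below the P0 level. Garnl3, at 0.987 times, was near it. Ipcef1 (3.09 times), Gm11549 (9.27 times), Atp2b4 (1.41 times), Cit (1.37 times) and Vstm2l (1.30 times) stood above it.

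Per kilobase of exon, the order of the genes in the P14 controls was Vstm2l (35.1 CPM per kb), Atp2b4 (7.38), Adgrl2 (3.77), Garnl3 (3.52), Meis2 (2.73), Cit (2.13), Brinp3 (1.91), Ipcef1 (1.604), Gm11549 (1.19) and Cobl (1.13). In the knockouts the order below Vstm2l and Atp2b4 (13.2) was Garnl3 (7.12), Adgrl2 (6.401), Meis2 (5.33), Ipcef1 (5.25), Gm11549 (3.77), Cit (3.117), Brinp3 (2.93) and Cobl (2.53). Ipcef1 thus moved from eighth place to the sixth. Neighbours such as Meis2 and Ipcef1, or Gm11549 and Cobl in the controls, differed by less than their SD.

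Differences among mice of the same genotype and age were not used to pick the genes, and here the 10 did not move as a block. Over the 45 pairs of genes, Pearson's r of the deviations from the group means in the 6 P14 libraries had a median of 0.03, and 23 of 45 were positive. The extremes were 0.88 for Meis2 and Cobl and -0.91 for Ipcef1 and Vstm2l. At P0 the median was 0.08 over 6 libraries, again with 23 positive pairs, from 0.93 for Garnl3 and Cit to -0.92 for Garnl3 and Atp2b4. The mean r was -0.02 at P14, where that over all genes was 0.005. With 6 libraries a group mean removed from 3 values each leaves little freedom, and all points share their library's depth and scaling factor. Nor did one knockout mouse carry the highest level of every gene: the first was highest for 5 of the genes, the second for 4 and the third for 1.

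**Figure D3:**
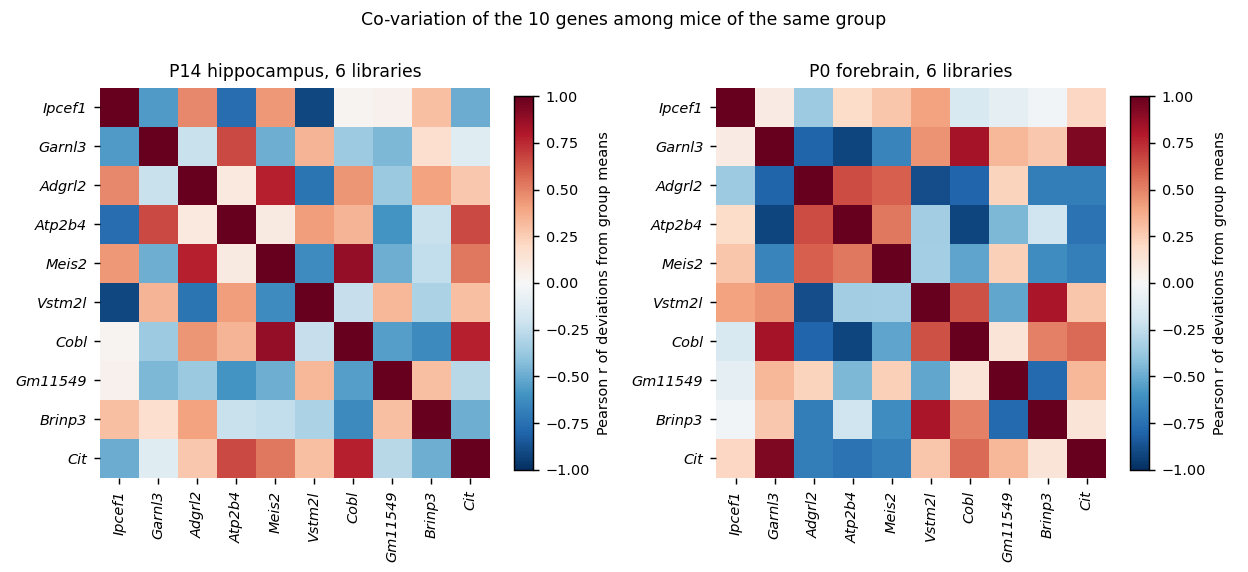
Pearson's r between each pair of the 10 genes, from log2 CPM minus the group mean, in the 6 P14 libraries (left) and the 6 P0 libraries (right); red is positive and blue negative. Both panels hold strong values of either sign, and the median off the diagonal is 0.03 at P14 and 0.08 at P0.

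The relatives and partners of the 10 genes were listed by family, and none of them is a member. Of 71 such genes 70 were tested at P14: 2 were called higher and none lower, or 2.86%, where 1.99% of all genes were called in either direction. Their median log2 fold change was 0.03. Most relatives were thus not called. The count changed with single libraries: it was 1 without the first or the second knockout library or the second control, and 13 without the third control. For those fits the share of all genes called is not given, so the change is no result about the relatives.

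Both called relatives were higher. Pbx3, a PBX partner of Meis2, stood at 10.8, 10.1 and 8.78 CPM in the P14 knockouts and 5.37, 5.59 and 4.80 CPM in the controls, with no overlap (log2 0.93 ± 0.15, edgeR adjusted p = 0.00548). Its call was lost without the first knockout library (adjusted p = 0.0503 in edgeR). Vstm2b, a relative of Vstm2l, stood at 47.3, 52.9 and 52.5 CPM against 38.4, 39.5 and 36.9 CPM (log2 0.42 ± 0.08, edgeR adjusted p = 0.0135). Its call was lost without the second or the third knockout library or without the second control (adjusted p = 0.0628 to 0.0722 in edgeR).

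No other relative was called at P14. Outside the families of Meis2 and Vstm2l, edgeR called 0 of 56 tested relatives, 10 had an unadjusted p under 0.05, and DESeq2 called 1. The remaining TALE factors included Meis1, at a log2 difference of 0.80 ± 0.31 (edgeR adjusted p = 0.231); the 10 together ranged from -0.42 to 0.93. The latrophilins, teneurins and FLRTs around Adgrl2 ranged from -0.43 to 0.32. The other plasma membrane calcium pumps and their partners ranged from -0.15 to 0.06, and Atp2b1, Atp2b2 and Atp2b3 stood at -0.02, 0.06 and 0.05. The actin nucleators ranged from -0.16 to 0.27. The related kinases and division partners of citron ranged from -0.19 to 0.09. The tested partners of Ipcef1, cytohesins and CNKSR scaffolds among them, ranged from -0.27 to 0.20, and the Rap GAP relatives of Garnl3 from -0.13 to 0.26. In the BRINP family Brinp2 was at 0.25 and Brinp1 at -0.01.

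At P0 1 of the 70 relatives was called, where 0.909% of all genes were called. Brinp1 was lower in the knockout, at 70.6, 61.8 and 70.4 CPM against 99.1, 91.4 and 85.7 CPM (log2 -0.45 ± 0.09, edgeR adjusted p = 0.0368), and the groups did not overlap. It was lower in both number series (log2 CPM -0.53 and -0.28). Brinp3 had a P0 value of -0.49 ± 0.12, and Brinp2 one of 0.09 ± 0.08 that was not called (edgeR adjusted p = 0.587). The count at P0 was 0 without the first or the second library of either genotype, 4 without the third knockout and 19 with the first number series alone. Here as well the share of all genes called in those fits is not given.

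The genes next to the 10 on the chromosome were looked at in the same way. Of 20 nearest genes with counts, 18 were tested at P14 and 1 was called, where 1.99% of all genes were called. The called gene was Grb10, an adaptor of growth factor receptors, which lies 197925 bases from Cobl. It stood at 47.3, 48.8 and 39.2 CPM in the knockouts and 35.8, 33.1 and 35.1 CPM in the controls (log2 0.39 ± 0.09, edgeR adjusted p = 0.0418). This call was lost in 7 of 15 other settings. Cnksr3, 66585 bases from Ipcef1, was at 0.03 ± 0.14, and the close neighbours of Garnl3, Slc2a8 and Ralgps1, were at 0.11 and 0.20. The 18 values ran from -0.58 (Pla2g4a, next to Brinp3) to 1.32 ± 0.60 (2700033N17Rik, 379 bases from Meis2, with knockout and control means of 1.003 and 0.414 CPM; edgeR adjusted p = 0.323). At P0 0 of 18 neighbours were called with edgeR and 0 with DESeq2, and 3 had an unadjusted p under 0.05. Of all genes tested at P0, edgeR called 0.909%, so few calls were to be had among 18 genes.

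Several of the 10 genes are known from regions that border the hippocampus or from particular hippocampal fields, so markers of the regions and cell types in and around the dissection were read beside them. Of 149 marker genes tested at P14 10 were called higher and 19 lower, or 19.5%, where 1.99% of all genes were called. The lists were chosen with earlier results of these data known, so the larger share is no independent result. The total of markers called was 15 without the first knockout library, 19 without the second control and 45 without the third control. For those fits, too, the share of all genes called is not given. When each of the 6 P14 libraries was left out in turn, the calls of Drd1, Cplx3, Foxp2, Ctgf, Mpped1, Prox1, Dsp, C1ql2, Iyd, Ndnf, Neurod1, Igfbpl1 and Sox11 held each time. Those of Foxp1, Fezf2, Lct, Bok, Cpne4, Ntf3, Calb1, Calb2, Lef1, Gad1, Neurog2 and Ccdc153 were lost at least once. The part of the marker differences in those of the 10 genes was not tested.

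Of 11 striatal projection neuron markers 2 were called higher in the P14 knockout and none lower. The summed level of the list was 217 to 300 CPM in the knockouts and 146 to 180 CPM in the controls, with a median log2 difference of 0.94 over the 11 genes. The called ones were Drd1, the dopamine D1 receptor, at 5.47, 9.76 and 7.44 CPM against 2.54, 3.18 and 2.58 CPM (log2 1.46 ± 0.22, edgeR adjusted p = 0.00341), and Foxp1, the most abundant of the list (0.38 ± 0.07, edgeR adjusted p = 0.0161). All 3 knockouts lay above all 3 controls for 8 of the 11, a separation seen in that direction for 9.43% of all genes tested. None of the list was at 0 in all P14 libraries; Isl1 was lowest, with 0 counts in 1 control.

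The second P14 knockout library was the highest in several of these markers. Drd1 was highest there, as was Ppp1r1b, which encodes a phosphatase regulator of striatal neurons, at 59.4 CPM against 37.2 and 31.4 CPM in the other knockouts and 21.1, 26.5 and 21.1 CPM in the controls (log2 0.91 ± 0.26, edgeR adjusted p = 0.191, not called; chosen after its values were seen). Meis2 and Cobl were also highest in that library. Without the second knockout library the log2 fold change of Meis2 was 0.87, that of Cobl 1.06 and that of Ipcef1 1.70. For Adgrl2 it was 0.77 and for Cit 0.50.

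Of 10 markers of deep cortical layers and the subplate 5 were called higher and none lower, with a median of 0.41. The list summed to 734 to 836 CPM in the knockouts and 652 to 672 CPM in the controls. Cplx3, a complexin of subplate neurons, stood at 14.8 ± 3.36 CPM against 2.08 ± 1.09 CPM (SD, n = 3), with no overlap (log2 2.85 ± 0.34, edgeR adjusted p = 0.00543). Foxp2, a transcription factor of deep layers and striatum, was at 7.51, 8.69 and 6.995 CPM against 1.91, 1.84 and 1.11 CPM (log2 2.27 ± 0.22, edgeR adjusted p = 0.000105). Ctgf (now Ccn2) rose by 1.5 and Fezf2 by 0.49, and Crym, the most abundant of the list, was not called (0.20). In the P0 wild-type forebrain Foxp2 stood at 96.7 CPM, so that it, like Meis2, was far scarcer in the P14 hippocampus. Tissue and age differ together in that comparison.

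Among dentate granule cell markers the calls were in the other direction. The list summed to 500 to 513 CPM in the knockouts and 638 to 695 CPM in the controls, and 6 of 9 were called lower, none higher, with a median of -0.63. Prox1, which sets granule cell identity and leads the list in level, was at 116, 97.7 and 124 CPM against 172, 200 and 202 CPM (log2 -0.76 ± 0.10, edgeR adjusted p = 0.00111). Dsp (-0.93), C1ql2 (-0.89) and Lct (-0.63) were among the others. Of the progenitor and immature neuron markers 4 of 11 were lower: Neurog2 (-0.96), Neurod1 (-0.82), Igfbpl1 (-0.67) and Sox11 (-0.58). Tubb3, the most abundant of that list, was not called (0.16).

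Among pyramidal cell markers, 2 of 8 for CA1 were called higher, Mpped1 (0.48) among them, while Fibcd1, the most abundant, was at 0.05. Of the CA3 list 3 of 8 were called lower, Iyd (-1.22), Bok (-0.44) and Cpne4 (-0.35), and of the CA2 list Ntf3 (-1.02). Nnat and Necab2, the most abundant of these lists, were at 0.13 and 0.02. Of the 8 subiculum and entorhinal markers edgeR called 0 and DESeq2 1, 2 had an unadjusted p under 0.05, and Lmo3, the most abundant, was at -0.15. Of the 8 upper-layer markers Calb1 was called lower (-0.41) and none higher. That list had a median of 0.20 and ran from -0.41 to 1.31.

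Of the remaining neuronal lists, Cajal-Retzius markers summed to 181 to 199 CPM in the knockouts and 247 to 280.0 CPM in the controls, with Ndnf called lower (-0.67). Calb2, which stands in the Cajal-Retzius, mossy cell and thalamic lists, was also lower (-0.44), as were Lef1 of the thalamic list (-1.16) and Gad1 of the interneuron list (-0.35). Reln (-0.36), Cck (-0.03) and Sv2b (-0.02), the most abundant of the Cajal-Retzius, interneuron and mossy lists, were not called. Of 31 markers of astrocytes, the oligodendrocyte lineage, microglia and vessels 0 were called with edgeR and 0 with DESeq2, and 8 had an unadjusted p under 0.05. Their most abundant genes were Slc1a2 at -0.02, Mbp at -0.17, Csf1r at 0.11 and Rgs5 at -0.34. From the choroid plexus and ependymal list Ccdc153 was higher (1.01), and Ttr, which choroid plexus makes in bulk, ranged from 131 to 2408 CPM among the controls alone.

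**Figure D4:**
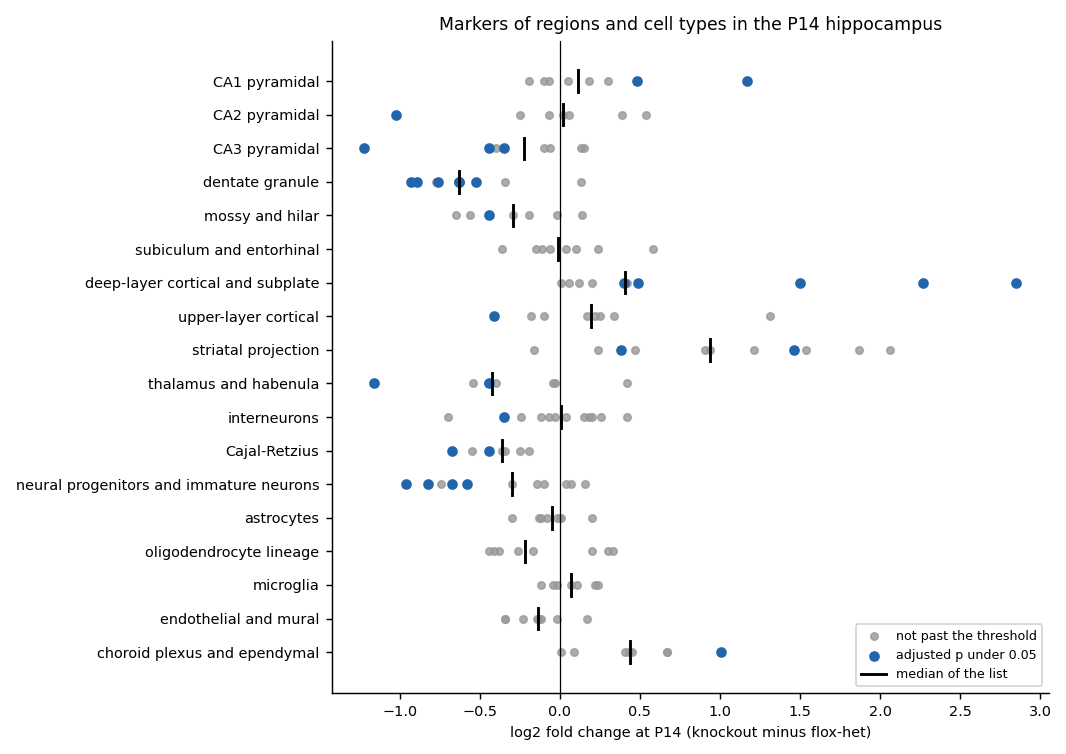
Log2 fold change at P14 (knockout minus flox-het) of marker genes, 1 row per region or cell type; blue points passed an adjusted p of 0.05 and black ticks are list medians. The dentate median lies at -0.63, the striatal at 0.94 and the deep-layer at 0.41.

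Genes that are no members but had the most similar profile were sought over the 12 libraries, from log2 CPM minus the mean of the age. All these points share the genotype difference by which the members were picked, so r mostly reports that difference. The 3 closest to the mean profile of the 10 were Cdh13 (r = 0.966), an adhesion protein of the cadherin family, Foxp2 (0.959) and Tmem132d (0.957). Cdh13 stood at 87.0, 85.2 and 85.3 CPM in the P14 knockouts and 63.6, 63.0 and 63.7 CPM in the controls (log2 0.45 ± 0.07), and Tmem132d was at 0.72 ± 0.09. Both were near 0 at P0, at -0.08 each.

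For single genes the closest profiles were those of Hs3st2 for Ipcef1 (r = 0.980), Fam219a for Garnl3 (0.955) and Cobl (0.967), Arnt2 for Adgrl2 (0.967) and Timp2 for Atp2b4 (0.942). Vstm2l was closest to Cdh13 (0.970), Gm11549 to Slc8a3 (0.925), Brinp3 to Pex5l (0.984) and Cit to Samd4 (0.956). Hs3st2, a heparan sulfate sulfotransferase of neurons, came near to Ipcef1 in size as well. It stood at 16.4, 19.7 and 18.8 CPM in the P14 knockouts and 5.89, 7.21 and 6.06 CPM in the controls (log2 1.53 ± 0.14), and at -0.21 ± 0.14 at P0.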

How the data were processed

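RNA was sequenced from 12 single-mouse samples, and the deposited files give read counts per gene, made by the authors with STAR 2.7.5a against GRCm38 per the submitters' processing notes, which also name edgeR 3.12. The unstranded count column was used, since the strand columns held near-equal shares (49.88 to 49.98% in the first); unassigned rows were left out of library sizes. Genes were fitted in R 4.3.3 with edgeR 4.0.16 (filterByExpr, TMM, robust quasi-likelihood test, Benjamini-Hochberg over all genes tested, threshold 0.05), for the 6 libraries compared or, for the difference between pairs, all 12. DESeq2 1.42.0, other scalings, filters, count columns and leaving out each library were tried as alternatives. Gene positions and exon lengths came from GENCODE vM21, and upstream sequences from RefSeq (GRCm38.p6). The fit was tested on simulated counts. Log2 CPM had a prior count of 2. Likeness was read among genes with a mean log2 CPM of at least 1.

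The genes named were the 10 members and Auts2, called relatives, up to 4 called genes and the most abundant gene per marker list, called neighbours, and the closest profiles; a few others are named after their values were seen. The members and lists were chosen with earlier results of these data known. A few values are not reported here. Replicates are separate animals. Library numbers in the labels form 2 series at P0.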

Additional observations from a re-analysis of the deposited data

Results flagged for a closer look

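The genotype difference was larger or smaller at P14 than at P0 by edgeR's test of the difference itself for the genes given here. Values are log2, P14 minus P0, positive where the P14 difference was the higher one, and the pairs differ in more than age, as described above. For the 10 genes this is how they were picked: Ipcef1 1.93, Garnl3 1.22, Adgrl2 0.62, Atp2b4 1.11, Meis2 0.81, Vstm2l 0.76, Cobl 1.45, Gm11549 2.63, Brinp3 1.10 and Cit 1.04.

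Among their relatives it was 0.70 for Pbx3 and 0.57 for Vstm2b, which were called at P14, and 0.51 for Rap1gap2, a Rap GAP that was not. The neighbour Grb10 gave 0.50.

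Over all 18189 genes tested, 1.37% gave a positive call and 0.423% a negative one. Among the deep-layer list 3 of 10 markers and among the striatal list 4 of 11 gave a positive call, with list medians of 0.44 and 1.02. The microglia list also gave 1 positive call of 7, with a median of 0.47. The deep-layer and striatal markers named are Cplx3 3.37, Foxp2 2.49, Ccn2 1.85, Drd1 1.61 and Foxp1 0.56. Negative calls were given by 1 of 9 dentate granule markers (Prox1 -0.69), 2 of 8 CA3 markers (Iyd -2.13 and Bok -0.55) and 4 of 11 markers of progenitors and immature neurons (Neurog2 -1.39, Igfbpl1 -1.30, Neurod1 -1.06 and Sox11 -1.0). The medians of the dentate, CA3 and progenitor lists were -0.01, 0.01 and -0.32. Igfbpl1 and Sox11 were called higher at P0 (log2 0.61 and 0.40), where they were called lower at P14.

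The genes with the most similar profiles were chosen for their likeness to the 10, so their values follow from that choice and are no independent result: Hs3st2 1.72, Tmem132d 0.79, Samd4 0.65, Pex5l 0.56, Timp2 0.55, Cdh13 0.51 and Fam219a 0.44.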

How the results depend on the processing

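The P14 call of all 10 genes held under every alternative except for Brinp3 without the first knockout library, and the calls of the difference between pairs held wherever they could be fitted. Between control groups 8 were called under each alternative run. Gm11549 had no P0 adjusted p in DESeq2, on the larger strand column or with at least 10 counts in every library, and that filter also left it out of the difference between pairs, where 9 genes were then called. At P0, where 1 gene was called, the count was 2 with DESeq2, 2 with no filter on low counts, 2 in 1 fit of all 12 libraries, 0 without robust fitting, 3 with the number series as a term and 6 in the first series alone (chosen after seeing the data); leaving out single libraries gave 0 to 4. Vstm2l at P0 ranged from -0.13 to 0.03 with a library left out, turning to 0.03 without the second knockout and 0.02 without the first wild type. Relatives called numbered 4 at P14 with DESeq2 and 6 with no filter, and 1 to 13 with a library left out. At P0 they numbered 4 with DESeq2, 4 with no filter, 0 without robust fitting, 2 on the larger strand column, 2 in 1 fit of all 12, 4 with the series term, 19 in the first series and 0 to 4 with a library left out. Markers called at P14 numbered 50 with no filter and 15 to 45 with a library left out. The share of all genes called in each alternative is not given. The changes in these counts are therefore no result about the members, relatives or markers. The cause was not tested. No paired analysis was possible because replicate numbers only follow accession order. Depth limits Gm11549 at P0, with 3 to 28 counts per library.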
